A study of Bos taurus with 21 samples.

Results

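The troponin genes described here are the 8 that encode the subunits of the calcium switch of striated muscle: *TNNC1* and *TNNC2* (troponin C), *TNNI1*, *TNNI2* and *TNNI3* (troponin I), and *TNNT1*, *TNNT2* and *TNNT3* (troponin T). Members were all non-control array probes whose RefSeq transcript belongs to 1 of these genes in the cattle annotation. The rule found 13 of the 43653 non-control probes, and they measured 6 of the 8 genes. Slow *TNNI1* and fast *TNNI2* had no matched probe and were not analysed here, so no skeletal troponin I was measured and cardiac *TNNI3* was the sole troponin I.

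RNA from the muscle of 21 foetuses of 2 French beef breeds was measured on single-colour bovine 4x44K arrays, with 1 array per foetus. Blonde d'Aquitaine (BA) is a heavily muscled breed in which a *MSTN* mutation is common, and Charolais (CH) is the breed it was compared with. BA contributed 3, 2, 3 and 2 foetuses at 110, 180, 210 and 260 days post-conception (dpc), and CH contributed 2, 3, 3 and 3. Sexes were unequally spread: males were 2 of 3, 0 of 2, 1 of 3 and 0 of 2 BA foetuses and 0 of 2, 1 of 3, 2 of 3 and 2 of 3 CH foetuses in order of stage. Each breed descended from its own bulls, which were unequally spread over the stages. The BA foetuses of 180 dpc shared a bull, those of 260 dpc shared another, and the CH foetuses of 210 dpc shared a bull. No foetus received a treatment, and the BA foetuses were not genotyped for *MSTN*, so BA stands for the breed and not for the mutation. The sample labels name the muscle as Longissimus thoracis, whereas the methods of the study name the Semitendinosus, and values here are given for muscle without a choice between them. Of the skeletal muscle markers listed, the 6 that had a probe (*ACTA1*, *CKM*, *DES*, *MYOD1*, *MYOG* and *CHRNA1*) were well above background on 21 of 21 arrays.

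In striated muscle troponin sits on the actin thin filament together with tropomyosin. Troponin C binds calcium, troponin I holds the filament in its inhibited state, and troponin T ties the complex to tropomyosin. Slow fibres, fast fibres and heart use different sets of these subunits, with *TNNC1* shared by slow skeletal fibres and heart. Cardiac troponin T is known to be made for a time in developing skeletal muscle before the skeletal forms take over.

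All values are normalized log2 intensities, on which 0 is the middle probe of a typical array and 1 unit is a 2-fold difference. Levels of different probes cannot be ranked against each other, because each probe has its own efficiency. Each gene was read from its brightest probe, and its other probes are given beside it. Probe values were all well above background on 21 of 21 arrays, and none was saturated. Comparisons were made with limma across all probes. A difference was called at a Benjamini-Hochberg adjusted p under 0.05. Adjustment ran over the 20132 probes that passed an expression filter, a group mean above 0 in 7 or more of the 8 groups. Of the 13 troponin probes 11 passed, for 5 genes. Both *TNNT2* probes were under it in the 2 groups of 260 dpc, so they were adjusted over all 43653 probes. RNA came from whole muscle, in which fewer cells of a type and less RNA per cell cannot be told apart.

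Between 110 and 260 dpc, with the breeds averaged, the 6 measured troponin genes split by isoform class. The slow genes *TNNC1* and *TNNT1* and the fast genes *TNNC2* and *TNNT3* rose, and the cardiac genes *TNNT2* and *TNNI3* fell. Of the 20132 tested probes 64.1% were called in this comparison, and 43.9% of all 43653 probes without the filter. That 6 of 6 genes were called is therefore not far from what most probes did. The plot of single foetuses shows when each gene moved.

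**Figure D1:**
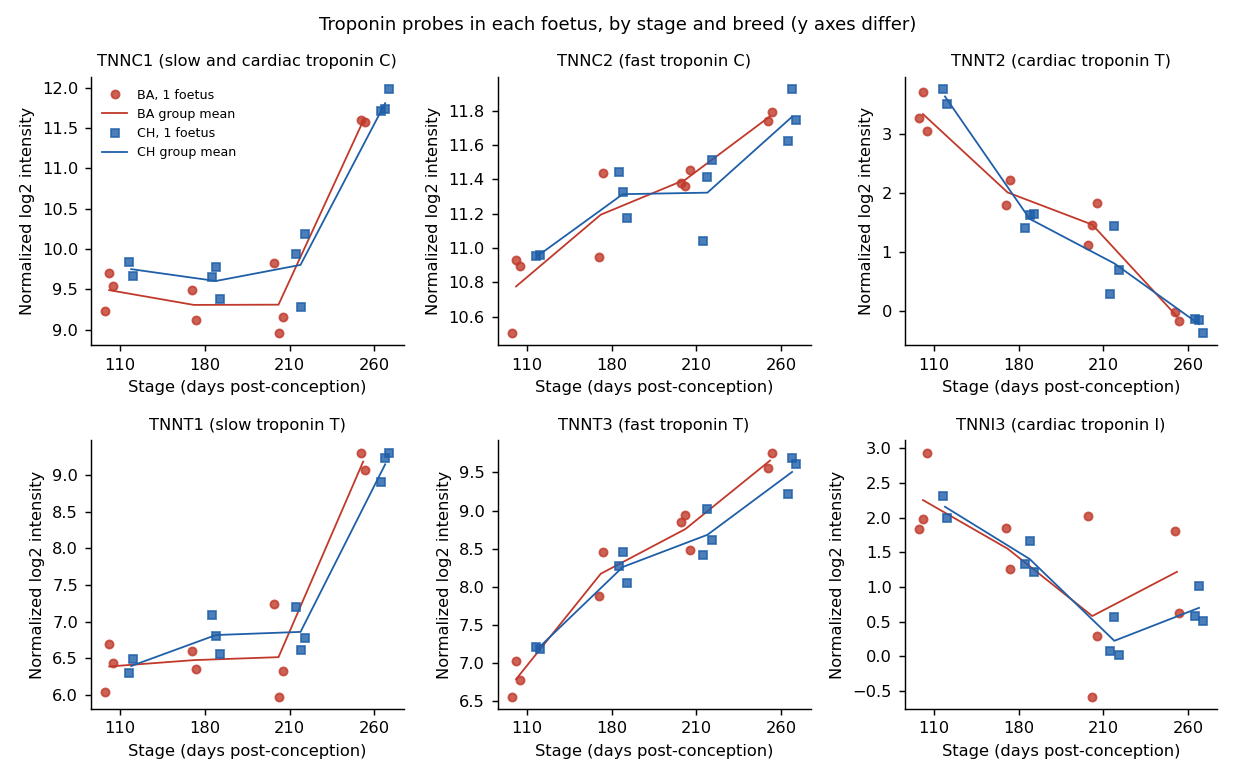
Normalized log2 intensity of the brightest probe of each troponin gene (y axis, with its own range in each panel) against stage in days post-conception (x axis). Each circle (BA) or square (CH) is 1 foetus and lines join group means. *TNNC1* and *TNNT1* stay level until 210 dpc and stand higher at 260 dpc, *TNNT3* climbs through the series, and *TNNT2* descends from 3.04 to 3.76 at 110 dpc to values under 0 at 260 dpc.

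*TNNC1*, the calcium-binding subunit of slow and cardiac fibres, held one level for most of the series and then rose. Its brightest probe (A_73_105438) read 9.23, 9.70 and 9.54 in BA and 9.84 and 9.66 in CH at 110 dpc. At 180 dpc the values were 9.49 and 9.13 in BA and 9.66, 9.77 and 9.38 in CH. The foetuses of 210 dpc gave 9.82, 8.95 and 9.15 in BA and 9.94, 9.28 and 10.19 in CH. These 3 stages overlapped throughout. By 260 dpc the values had moved to 11.60 and 11.58 in BA and 11.71, 11.74 and 11.98 in CH, above every foetus of the earlier stages.

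The steps of *TNNC1* were -0.17 ± 0.18 (log2 difference ± SE) from 110 to 180 dpc (adjusted p = 0.557), 0.10 ± 0.17 from 180 to 210 dpc (adjusted p = 0.774) and 2.14 ± 0.17 from 210 to 260 dpc (adjusted p = 1.08e-07). The last step corresponds to a 4.41-fold rise, and under 35 alternatives of processing or samples it ranged from 1.62 to 2.32. The other 2 *TNNC1* probes rose by 2.39 and 2.43 in that step and neither moved in the earlier ones (adjusted p from 0.583 to 0.854). Agreement among the 3 probes was close, with Pearson r from 0.986 to 0.997 over 21 arrays.

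*TNNT1*, the tropomyosin-binding subunit of slow fibres, followed the same course. At 110 dpc its brightest probe (A_73_P445326) read 6.04, 6.70 and 6.43 in BA and 6.30 and 6.49 in CH. At 180 dpc it read 6.60 and 6.36 in BA and 7.09, 6.81 and 6.56 in CH, and at 210 dpc 7.24, 5.98 and 6.33 in BA and 7.20, 6.61 and 6.77 in CH. Single foetuses of 210 dpc lay both below and above all foetuses of 110 dpc. At 260 dpc the values were 9.30 and 9.07 in BA and 8.90, 9.23 and 9.31 in CH, again above all earlier foetuses.

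The step from 210 to 260 dpc was 2.48 ± 0.19 for *TNNT1* (5.57-fold, adjusted p = 1.01e-07), and under the 35 alternatives it ranged from 2.03 to 2.66. Before it, the differences were 0.25 ± 0.20 (110 to 180 dpc, adjusted p = 0.405) and 0.04 ± 0.19 (180 to 210 dpc, adjusted p = 0.929). Its 3 probes gave 2.48, 2.48 and 2.53 for the last step. Of all tested probes 44.7% were called between 210 and 260 dpc, against 24% between 110 and 180 dpc and 9.68% between 180 and 210 dpc. Of the tested probes 24.8% rose and 19.9% fell in the last step. The scanner reads very bright spots from a second, lower-gain scan and scales them up. For the brightest *TNNT1* probe this happened on 0 of 5 arrays at 110 dpc, 0 of 5 at 180 dpc, 1 of 6 at 210 dpc and 5 of 5 at 260 dpc, so the change of scan moved with the stage. The other 2 *TNNT1* probes and the dimmest *TNNC1* probe also went from 0 of 5 arrays at 110 dpc to 5 of 5 at 260 dpc. Agreement among the *TNNT1* probes thus cannot tell their step from the change of scan, whose part in the values was not tested. The brightest *TNNC1* and *TNNC2* probes were read from the lower-gain scan on all 21 arrays.

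*TNNC2*, the calcium-binding subunit of fast fibres, rose in small steps. Its 1 probe (A_73_102024) read 10.50, 10.93 and 10.90 in BA and 10.95 and 10.96 in CH at 110 dpc, and 10.95 and 11.44 in BA and 11.44, 11.32 and 11.17 in CH at 180 dpc. At 210 dpc it read 11.38, 11.36 and 11.45 in BA and 11.04, 11.41 and 11.51 in CH. The ranges of 180 and 210 dpc overlapped. At 260 dpc the values were 11.74 and 11.79 in BA and 11.62, 11.92 and 11.74 in CH, above all foetuses of 210 dpc.

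From 110 to 260 dpc *TNNC2* rose by 0.90 ± 0.12 (1.87-fold, adjusted p = 3.68e-06). The steps were 0.39 ± 0.12 (adjusted p = 0.0238), 0.11 ± 0.11 (adjusted p = 0.614) and 0.41 ± 0.11 (adjusted p = 0.00736). The *TNNC2* probe read 190758 to 383821 intensity units over the 21 arrays, and whether it responds evenly at such brightness was not tested. Single steps of *TNNC2* rest on the scaling of the arrays. With quantile normalization, which gives each rank the same value on every array, the last step turned to -0.15 (adjusted p = 0.0427), and in the authors' unscaled log2 table it was -0.01 (adjusted p = 0.983). The first step lost its call under 8 of 35 alternatives, while the rise from 110 to 260 dpc, with the breeds averaged, was called under all 35 at a size from 0.24 (quantile normalization) to 1.05.

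*TNNT3*, the tropomyosin-binding subunit of fast fibres, climbed through the series. Its brightest probe (A_73_P316731) read 6.56, 7.03 and 6.77 in BA and 7.21 and 7.18 in CH at 110 dpc. At 180 dpc it read 7.88 and 8.46 in BA and 8.27, 8.46 and 8.05 in CH, so every foetus was above every foetus of 110 dpc. At 210 dpc the values were 8.84, 8.95 and 8.48 in BA and 8.41, 9.02 and 8.62 in CH, and at 260 dpc 9.55 and 9.76 in BA and 9.21, 9.69 and 9.61 in CH. The ranges overlapped between 180 and 210 dpc and were apart again between 210 and 260 dpc.

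*TNNT3* rose by 1.22 ± 0.15 from 110 to 180 dpc (2.34-fold, adjusted p = 2.13e-05), by 0.50 ± 0.14 from 180 to 210 dpc (adjusted p = 0.0360) and by 0.86 ± 0.14 from 210 to 260 dpc (1.82-fold, adjusted p = 1.44e-04). In all it rose 6.02-fold (2.59 ± 0.15, adjusted p = 1.93e-10), and under the 35 alternatives this rise ranged from 2.03 to 3.15. The middle step lost its call under 14 of 35 alternatives, and in the authors' unscaled table the last step was 0.45 (adjusted p = 0.0555). The brightest probe was read from the lower-gain scan on 1 of 5 arrays at 110 dpc and 5 of 5 at 180 dpc, so the change of scan moved with its largest step, and its part was not tested. The second probe rose by 2.44 over the whole period, and it changed scan in the same step (0 of 5 arrays at 110 dpc and 5 of 5 at 180 dpc).

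The dimmest *TNNT3* probe (A_73_P040156), matched to the same transcript record, moved further and less evenly. It read 3.68, 5.43 and 3.91 in BA and 4.94 and 4.89 in CH at 110 dpc, and 8.77 and 9.92 in BA and 7.44, 8.32 and 10.56 in CH at 260 dpc. The 3 CH foetuses of 260 dpc thus spanned more than 3 units on this probe and less than 1 on the brightest probe. From 110 to 180 dpc, when all 10 arrays were read from the standard scan, it rose by 1.93 ± 0.51 (adjusted p = 0.0105). Its rise from 110 to 260 dpc was 4.43 ± 0.51 (adjusted p = 7.80e-07). At 260 dpc 4 of 5 arrays were read from the lower-gain scan, so the change of scan moved with this rise. The part of the scan in the rise and in the spread at 260 dpc was not tested. For this probe the correlation with the others was also lower. It was 0.916 and 0.894 over 21 arrays, against 0.995 between the other 2 *TNNT3* probes. The annotation holds 11 transcripts of *TNNT3*, a gene known for extensive alternative splicing, and which of them each probe detects was not tested.

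**Figure D2:**
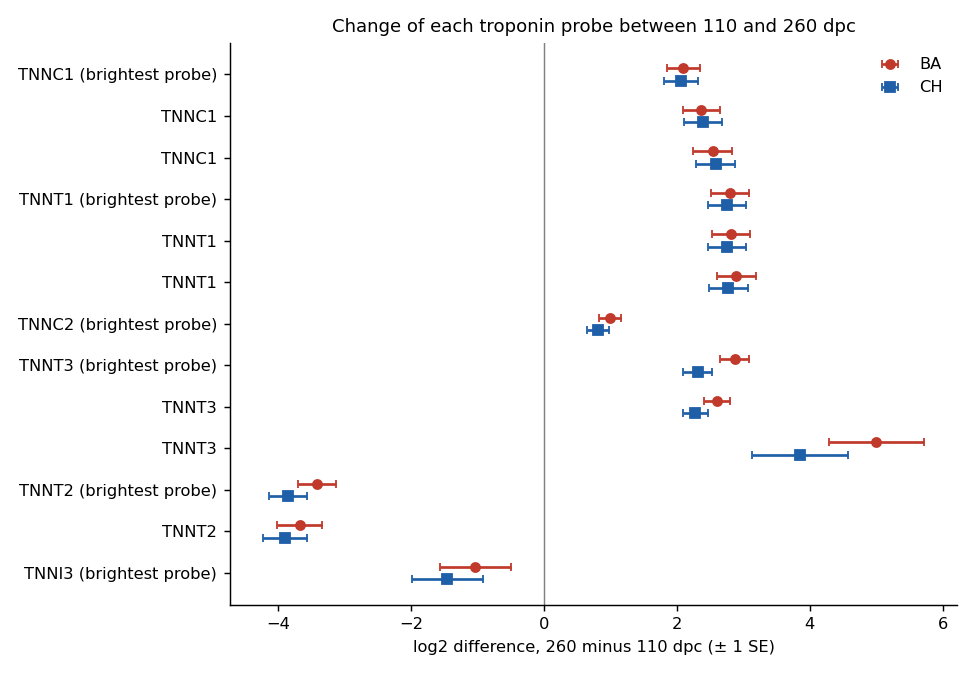
Log2 difference between 260 and 110 dpc (x axis, ± 1 SE of the limma fit) for each of the 13 troponin probes (rows), in BA (circles) and CH (squares). Probes of slow and fast genes lie right of 0, those of the cardiac genes lie left of it, and 1 *TNNT3* probe stands apart, with a breed average of 4.43.

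*TNNT2*, cardiac troponin T, was present in the youngest muscle and fell through the series. Its brightest probe (A_73_105974) read 3.26, 3.70 and 3.04 in BA and 3.76 and 3.51 in CH at 110 dpc. At 180 dpc the values were 1.80 and 2.22 in BA and 1.41, 1.63 and 1.65 in CH, below every foetus of 110 dpc. At 210 dpc they were 1.12, 1.46 and 1.82 in BA and 0.30, 1.44 and 0.69 in CH, which overlapped 180 dpc. At 260 dpc they were -0.01 and -0.16 in BA and -0.13, -0.15 and -0.37 in CH, below every earlier foetus.

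The fall of *TNNT2* from 110 to 260 dpc was 12.4-fold (-3.64 ± 0.20, adjusted p = 1.17e-09). By steps it was -1.70 ± 0.20 (110 to 180 dpc, adjusted p = 4.73e-05), -0.65 ± 0.19 (180 to 210 dpc, adjusted p = 0.0805) and -1.29 ± 0.19 (210 to 260 dpc, adjusted p = 1.61e-04). The second *TNNT2* probe fell by 3.79 over the period. Between 13.2% (110 to 180 dpc) and 24% (210 to 260 dpc) of all 43653 probes were called in those steps, and 3.62% from 180 to 210 dpc. Even at 260 dpc both probes stayed well above background in all 5 foetuses, although the brightest probe read down to 70 intensity units without background subtraction. The size of the fall rests on the processing. Under the 35 alternatives the difference of *TNNT2* between 260 and 110 dpc ranged from -4.03 to -2.81, and it was called under all 35.

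*TNNI3*, cardiac troponin I, also fell, with a wider scatter. Its 1 probe (A_73_120236) read 1.84, 1.98 and 2.94 in BA and 2.31 and 2.00 in CH at 110 dpc, and 1.85 and 1.26 in BA and 1.33, 1.66 and 1.22 in CH at 180 dpc. At 210 dpc it read 2.03, -0.58 and 0.29 in BA and 0.07, 0.57 and 0.02 in CH. BA replicate 1 of 210 dpc stood with the foetuses of 110 dpc, and the other 5 foetuses of 210 dpc were below all those of 180 dpc. At 260 dpc the values were 1.81 and 0.62 in BA and 0.58, 1.01 and 0.50 in CH, so the lowest values of *TNNI3* were not in the oldest foetuses.

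From 110 to 260 dpc *TNNI3* fell by 1.25 ± 0.38 (2.37-fold, adjusted p = 0.00803), and the 5 foetuses of 260 dpc were all below the 5 of 110 dpc. Without BA replicate 2 of 260 dpc the difference was -0.95 (adjusted p = 0.0606). No single step was called: the differences were -0.73 ± 0.38 (adjusted p = 0.180), -1.08 ± 0.36 (adjusted p = 0.0687) and 0.56 ± 0.36 (adjusted p = 0.222). BA replicate 1 of 210 dpc decides the last 2 of these. Without it the step from 180 to 210 dpc was -1.44 (adjusted p = 0.00400) and that from 210 to 260 dpc was 0.92 (adjusted p = 0.0103), a fall followed by a rise. In the annotation *TNNI3* and *TNNT1* are direct neighbours on chromosome 18, and from 110 to 260 dpc they moved in opposite directions.

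Markers of heart muscle were read beside the cardiac troponins. Of 9 listed, 6 had a probe. The defining markers *NPPA* and *NPPB* (the natriuretic peptides) and *NKX2-5* (a heart transcription factor) were well above background on 0 of 21 arrays, at -5.52 to -3.93. *TBX20* was well above background on 2 arrays and *GATA4* on 8. *MYBPC3*, cardiac myosin-binding protein C, was well above background on all 21 and rose by 0.58 from 110 to 260 dpc. At 110 dpc the mean over the 6 probes ranged from -3.22 to -3.04, and at 260 dpc it ranged from -2.92 to -2.44. Most of these probes were at or near background, so their mean is no measure of heart muscle in a sample, and its part in the cardiac troponin values was not tested.

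Markers of other cell types were also compared between 110 and 260 dpc. Of the 4 listed red cell genes 2 were tested, and both fell from 110 to 260 dpc (*HBA*, -1.64, and *HBB*, -2.46), and of 5 smooth muscle genes 1 rose (*MYH11*, 2.73) and 2 fell (*ACTA2*, -1.63, and *SMTN*, -0.54). The mean of the red cell probes lay between 3.24 and 4.39 at 110 dpc and between 1.17 and 2.77 at 260 dpc. For the smooth muscle probes it lay between 4.96 and 5.18, then between 4.71 and 5.83. Of the 4 endothelial genes 3 rose, 1 of 2 tested leukocyte genes rose, and the 1 tested adipocyte gene was not called. The skeletal muscle markers were not constant either: of the 6 tested, 4 rose and 1 fell, with a median difference of 0.64. Their mean lay between 7.55 and 8.71 at 110 dpc. At 260 dpc it was above that range in every foetus, with a highest value of 9.35. Among all tested probes 33.3% rose and 30.8% fell, so such counts of few genes are no result about a cell type. Their part in the troponin values was not tested.

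Because fast and slow forms were read on the same array, the difference between both probes of one foetus does not depend on the scaling of that array. Its absolute size has no meaning across probes. Its shift between stages has one only where neither probe changes scan and both respond evenly over their range. For troponin C the probes read up to 383821 (*TNNC2*) and 365386 (*TNNC1*) intensity units, and whether such bright probes respond evenly was not tested. The fast-minus-slow difference of troponin C (*TNNC2* minus *TNNC1*) averaged 1.25 at 110 dpc, 1.78 at 180 dpc, 1.80 at 210 dpc and 0.05 at 260 dpc. For troponin T (*TNNT3* minus *TNNT1*) it averaged 0.56, 1.54, 2.03 and 0.41. Here *TNNT3* was read from the lower-gain scan on 1 of 5, 5 of 5, 6 of 6 and 5 of 5 arrays in order of stage. For *TNNT1* this was 0 of 5, 0 of 5, 1 of 6 and 5 of 5. Both probes were thus mostly on different scans at 180 and 210 dpc, where the difference was highest, and the part of the scan was not tested. In both subunits the mean was higher at 180 than at 110 dpc and lower at 260 than at 210 dpc. From 180 to 210 dpc the mean of troponin C was level, at 1.89 and 2.09 in BA and 1.71 and 1.52 in CH, with single foetuses of 210 dpc from 1.10 to 2.40.

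For troponin T the foetuses of 110 dpc ranged from 0.33 to 0.91 and those of 260 dpc from 0.25 to 0.69, which overlap, whereas 180 and 210 dpc together ranged from 1.18 to 2.97 and lay above both. Troponin C at 260 dpc (-0.24 to 0.21) lay below every other foetus. The cardiac-minus-fast difference of troponin T (*TNNT2* minus *TNNT3*) shifted one way only, from a mean of -3.50 at 110 dpc through -6.48 and -7.58 to -9.73 at 260 dpc. In this pair too *TNNT3* changed scan between 110 and 180 dpc, whereas *TNNT2* was read from the standard scan throughout.

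**Figure D3:**
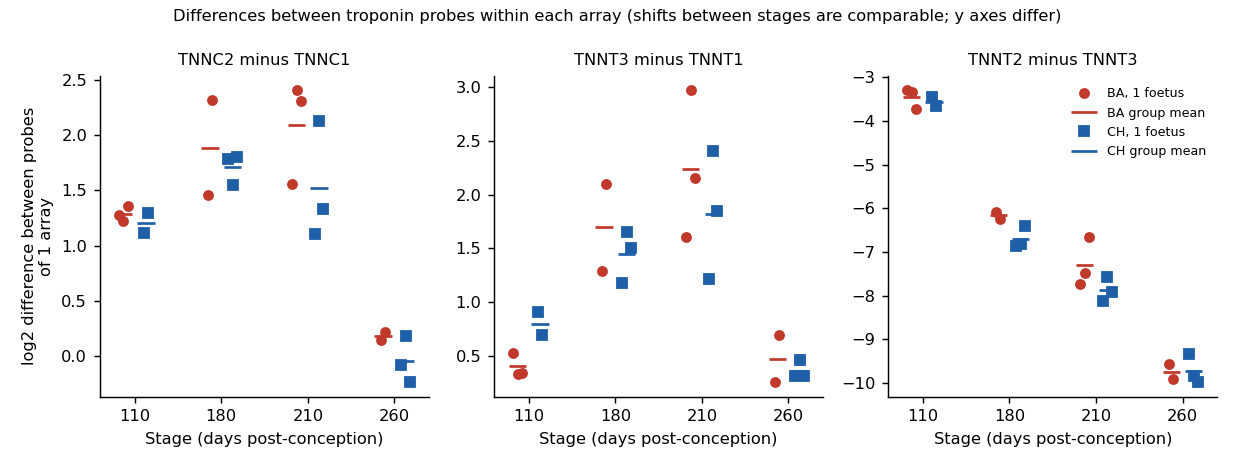
Log2 difference between 2 troponin probes of the same array (y axis, with its own range in each panel) by stage in days post-conception. Circles (BA) and squares (CH) are single foetuses and short bars are group means. The 2 fast-minus-slow differences have higher means at 180 and 210 dpc than at 110 dpc and lie at means of 0.05 (troponin C) and 0.41 (troponin T) at 260 dpc, while the cardiac-minus-fast difference falls at each stage. The probes of *TNNT3* and *TNNT1* were read from different scans on most arrays of 180 and 210 dpc.

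The 4 slow and fast genes rose in each breed, *TNNC2* depending on the scaling. In BA *TNNC1* rose by 2.10 ± 0.25, *TNNT1* by 2.79 ± 0.29, *TNNC2* by 0.99 ± 0.17 and *TNNT3* by 2.87 ± 0.22 from 110 to 260 dpc. The rises in CH were 2.06 ± 0.25, 2.75 ± 0.29, 0.81 ± 0.17 and 2.31 ± 0.22 in the same order. The *TNNC2* rise was not called in the authors' unscaled table in either breed (BA 0.58, adjusted p = 0.0783, and CH 0.44, adjusted p = 0.189), nor in CH with quantile normalization (0.14, adjusted p = 0.187). The fall of *TNNT2* was -3.42 ± 0.29 in BA and -3.85 ± 0.29 in CH. *TNNI3* fell by 1.46 ± 0.53 in CH (adjusted p = 0.0296), and its difference in BA was -1.04 ± 0.53 (adjusted p = 0.114). In BA 5 of 6 genes were called and in CH 6 of 6, against 52.4% and 52.2% of tested probes (33.3% and 32.7% without the filter). The *TNNI3* call in CH was lost under 5 of 35 alternatives.

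The difference between the breeds in this change was tested directly and called for 0 of 6 genes and 0% of tested probes (0.00687% without the filter, that is 3 probes), although 1427 of 20132 had an unadjusted p under 0.05. The largest was that of *TNNT3*, 0.55 ± 0.31 (BA change minus CH change, unadjusted p = 0.0872, adjusted p = 0.747), with a 95% confidence interval from -0.09 to 1.20. For *TNNC1* and *TNNT1* the difference was 0.04 each, with intervals from -0.72 to 0.80 and from -0.82 to 0.91, so these arrays do not show that the breeds changed alike.

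At single stages no troponin gene was called between the breeds: 0 of 6 at 110 dpc, where 0.273% of tested probes were called, at 180 dpc (0.00993%), and at 210 and 260 dpc (0% each). For probes without the filter the shares were 0.0206%, 0.0275%, 0.00229% and 0.0137%. At an unadjusted p under 0.05 there were 2 troponin genes at 210 dpc, *TNNC1* and *TNNT2*, and 0 at the other stages. For all tested probes that count was 2775, 1242, 1054 and 1075 in order of stage. *TNNC1* was lower in BA at each stage, by -0.26, -0.30, -0.49 and -0.22 (BA minus CH, SE from 0.23 to 0.25). At 210 dpc the unadjusted p was 0.0439 with an adjusted p of 0.936 in the limma fit. Its dimmest probe gave -0.50, -0.04, -0.64 and -0.55.

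Averaged over the 4 stages *TNNC1* was lower in BA by -0.32 ± 0.12, with a 95% confidence interval from -0.58 to -0.06. An exact two-sided permutation of the breeds within stages (20000 reassignments) gave p = 0.0135, and the other 2 probes gave -0.38 (exact p = 0.0103) and -0.43 (exact p = 0.0107). The permutation treated foetuses as independent, although some shared a bull, so its p does not measure the spread between families of a breed. With sex as a covariate the average was -0.36 ± 0.12 (limma, adjusted p = 0.193), and the differences by stage were -0.08, -0.39, -0.58 and -0.40. After adjustment over the 20132 probes the average was not called (limma, adjusted p = 0.292), where 0.358% of tested probes were (0.0733% without the filter). Under the 35 alternatives the average ranged from -0.38 to -0.25 and was not called. Within 1 scan day, the day that held both breeds at every stage, the *TNNC1* differences were -0.37, -0.45, 0.20 and -0.26 in order of stage, so at 210 dpc the sign turned. On the other day that held both breeds at 210 dpc the difference was -0.98, from 1 foetus of each.

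For the other 5 genes the mean breed difference was -0.16 ± 0.14 (*TNNT1*), -0.06 ± 0.08 (*TNNC2*), -0.07 ± 0.11 (*TNNT3*), 0.23 ± 0.14 (*TNNT2*) and 0.28 ± 0.26 (*TNNI3*), with exact permutation p from 0.131 to 0.558. At 210 dpc *TNNT2* was 0.66 ± 0.26 higher in BA (limma, unadjusted p = 0.0215, adjusted p = 1). Its second probe differed by 0.56 ± 0.30 there. The fast subunits had the narrowest intervals, from -0.23 to 0.12 for *TNNC2* and from -0.29 to 0.16 for *TNNT3*. Whether the very bright *TNNC2* probe responds evenly was not tested, so its narrow interval may not stand for precision.

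**Figure D4:**
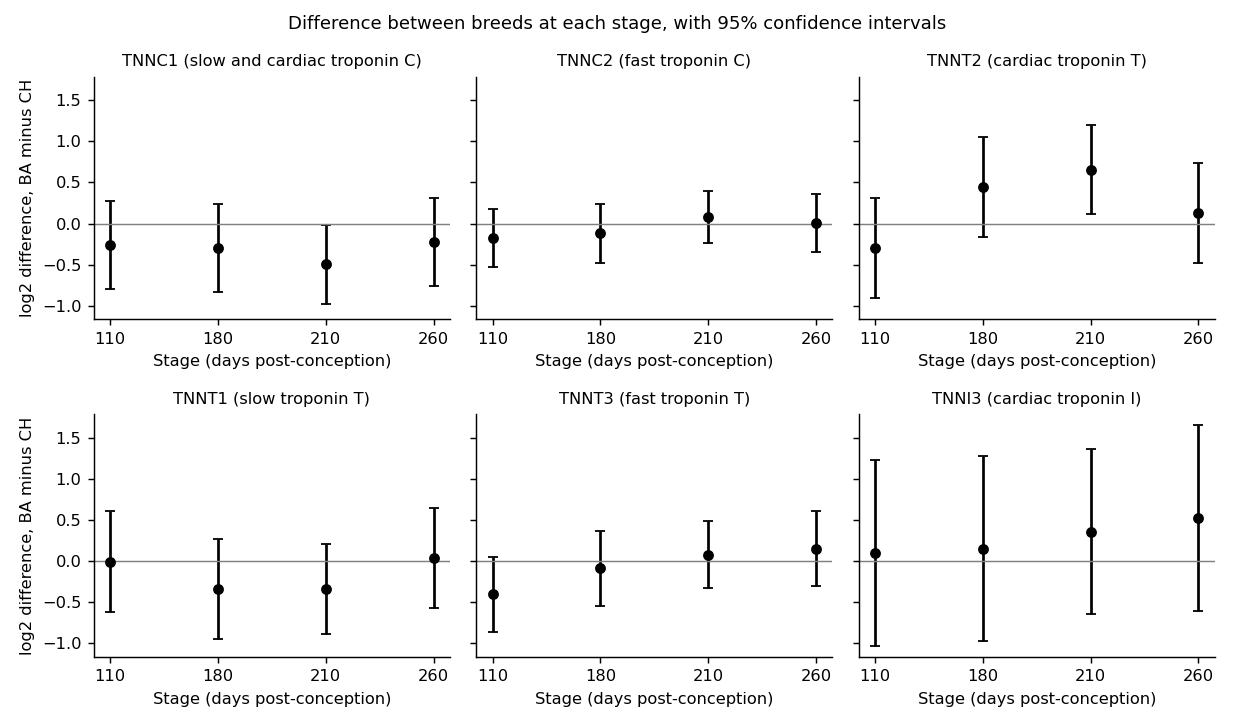
Difference between BA and CH (y axis, BA minus CH, log2) in the brightest probe of each troponin gene at 110, 180, 210 and 260 dpc (x axis). Points are limma estimates from 2 or 3 foetuses per breed and bars are 95% confidence intervals without adjustment for multiple tests. *TNNC1* is below 0 at all 4 stages, and *TNNT2* at 210 dpc lies at 0.66.

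The partners of troponin on the thin filament mostly rose. Of 20 listed genes 17 were tested, and from 110 to 260 dpc 14 rose and 2 fell, with a median difference of 1.62 against 0.03 over all tested probes. Among all tested probes 33.3% rose and 30.8% fell. *TMOD4* (a tropomodulin, which caps the pointed end of the filament) rose by 5.66 and *LMOD2* (a leiomodin, which nucleates actin) by 3.41. *TPM4*, a tropomyosin of non-muscle and immature cells, fell by 1.12 and *ACTC1*, cardiac actin, by 0.40.

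Listed genes of fast fibres rose in step with *TNNT3*. All 10 tested of 12 rose from 110 to 260 dpc (median 3.48), with *ACTN3* (fast alpha-actinin) at 6.93 and *CASQ1* (the calcium store protein of fast fibres) at 3.90. Of these 10, 8 rose already between 110 and 180 dpc, 8 between 180 and 210 dpc and 10 between 210 and 260 dpc. Among all tested probes the shares that rose were 12.5%, 5.35% and 24.8% in these steps, and 33.3% over the whole period.

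Slow fibre genes were later, as *TNNC1* and *TNNT1* were. Of 13 tested of 14, 2 rose and 1 fell from 110 to 180 dpc, 1 rose from 180 to 210 dpc, and 10 rose from 210 to 260 dpc. Among all tested probes 12.5%, 5.35% and 24.8% rose in these steps, so the counts of the first 2 steps were near those shares. Over the whole period 9 slow fibre genes rose and 1 fell (median 0.98), against 33.3% and 30.8% of all tested probes. *PLN* (phospholamban, the brake of the slow calcium pump) rose by 5.14, *MB* (myoglobin) by 2.98, and *FHL2* fell by 0.80. *TPM3*, the slow tropomyosin that troponin T binds, was picked out after its values were seen: it fell by 1.17 from 110 to 180 dpc (adjusted p = 4.01e-04) and rose by 2.28 from 210 to 260 dpc (adjusted p = 1.53e-07).

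Genes of developing muscle went the way of *TNNT2*. Of 10 tested, 7 fell and 1 rose from 110 to 260 dpc (median -0.81), against 30.8% and 33.3% of all tested probes. *MYL4*, the atrial and embryonic myosin light chain, fell by 4.21 and *CHRNG*, the foetal subunit of the acetylcholine receptor, by 2.77, while *IGF2* rose by 0.36. Of these 10 genes 6 fell between 210 and 260 dpc and 2 fell between 110 and 180 dpc, where *TNNT2* had its largest step. The shares of all tested probes that fell were 19.9% and 11.4% in these steps, and 4.33% from 180 to 210 dpc, where 2 of the 10 genes fell. None of the 4 lists had a member called between the breeds on average over the stages, where only 0.358% of all tested probes were called.

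**Figure D5:**
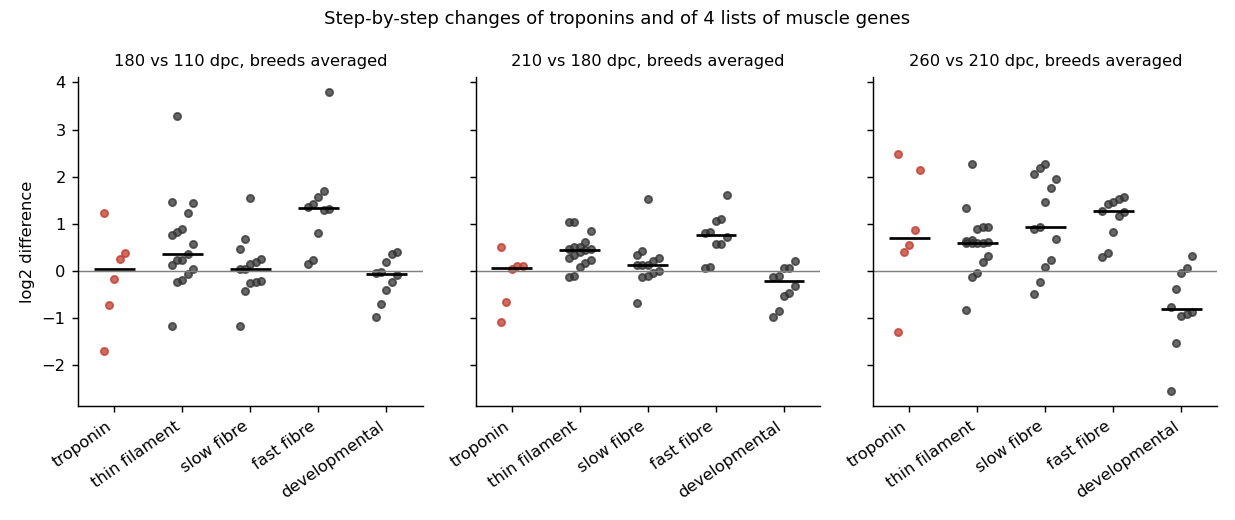
Log2 difference of each step between stages, breeds averaged (y axis), for the brightest probes of the 6 troponin genes and for the tested genes of 4 lists (x axis). Points are genes and bars are medians. Fast fibre genes lie mostly above 0 in each step, and most slow fibre genes do so in the step from 210 to 260 dpc.

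Across the 21 arrays the slow pair and the fast pair of troponins had the most similar profiles, and the cardiac pair did not group in this way. This is a description over arrays that share their stages, with no test. *TNNC1* and *TNNT1* correlated at 0.972 (Pearson r), *TNNC2* and *TNNT3* at 0.938, and *TNNT2* and *TNNT3* at -0.916. Slow and fast genes correlated with each other at 0.65 to 0.75. *TNNI3* stood further off, at 0.598 with *TNNT2* and -0.614 with *TNNT3*.

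Among the 7931 other genes with a tested probe, those most like *TNNC1* were *CD164L2* (0.973), *TNNT1* (0.972) and *MYL6B* (0.971), and those most like *TNNT1* were *TNNC1*, *HOMER2* (0.968) and *MYL6B* (0.968). *MYL6B* is a myosin light chain of slow fibres. *TNNC2* was most like *MYL11* (0.986), the fast regulatory light chain, *DES* (0.973), which encodes desmin, and *GAPDH* (0.959). *TNNT3* was most like *BIN1* (0.991), a protein of the transverse tubules, *RTN2* (0.987) and *CACNG1* (0.987), a subunit of the muscle calcium channel. For *TNNI3* the closest were *ZDHHC16* (0.818), *ATP2B1* (0.813) and *EXOC3* (0.789), and no muscle structural gene was among them.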

How the data were processed

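Intensities were extracted by the authors, from 1 array per foetus, with Agilent Feature Extraction 10.7, without background subtraction. The study's methods mention normalization between arrays, but the values used here show none: the authors' table holds log2 values, 99.98% of which matched the log2 of the scanner intensity to 0.01. Of the 45220 spots, controls were left out, and 258 spot values marked as outliers, none of a troponin probe. From each array's log2 intensity its 75th percentile (525 to 1174 intensity units) was subtracted and a constant of 2.69 added. The number of arrays limits precision, and 29017 to 34501 probes per array were well above background.

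RefSeq accessions named 26628 probes of 12538 genes, by the annotation of ARS-UCD2.0. The array follows a different assembly, for which reason positions are not printed, and the sources used here hold no probe sequences. A mean for each of the 8 groups of breed and stage was fitted over the 21 arrays in limma 3.58.1 (R 4.3.3), with 13 residual and 3.79 prior degrees of freedom. Breeds were permuted exactly within stages, two-sided, for 13 probes. All 8 troponins were named, the 6 measured ones by their brightest probe, with up to 4 members per list (the 2 largest changes in each direction from 110 to 260 dpc) and the 3 genes most like each troponin that passed the filter. The members, lists and rules were chosen with earlier results of these data known, so the *TNNC1* breed difference is no independent support. On simulated data, with 100 of 20052 probes shifted by 1 log2 unit and 100 by 2 units, the comparison of 260 with 110 dpc recovered 96 and 97 of them, with 10 false calls. The simulation drew independent normal noise around a flat mean for each probe, and only probes with a mean above 2 were shifted. Replicate numbers did not pair the foetuses (median correlation 0.01 over 66 pairs of the same number and -0.01 over 126 others). The alternatives were 13 changes of processing or model, 1 more chosen after seeing the data (scan day as a block), and leaving out each of the 21 arrays.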

Additional observations from a re-analysis of the deposited data

How the results depend on the processing

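With the replicate block the counts of called troponin genes were as reported, for example 6 from 110 to 260 dpc and 1 from 180 to 210 dpc. That count of 1 became 0 when no filter was set, with median scaling, with slide as a block, in the authors' table, for the arrays of the compared groups alone and the mean of all probes, and 2 under trended and robust variance. From 210 to 260 dpc the authors' table gave 3 in place of 5, without *TNNC2* and *TNNT3*. Leaving out 1 array gave 2 to 3 calls from 110 to 180 dpc, 0 to 1 from 180 to 210 dpc, 5 to 6 from 210 to 260 dpc, 5 to 6 from 110 to 260 dpc in each breed and averaged, and 0 between breeds. The *TNNT3* call from 180 to 210 dpc was lost without BA replicate 1 or CH replicate 1 or 3 of 180 dpc, and without BA replicate 1 or 2 or CH replicate 2 or 3 of 210 dpc. Without BA replicate 1 of 210 dpc *TNNI3* was called in that step, and without CH replicate 2 *TNNT2*. Quantile normalization turned the differences from 180 to 210 dpc of *TNNC1* (-0.018), *TNNC2* (-0.021) and *TNNT1* (-0.003), and that of *TNNC2* from 210 to 260 dpc (-0.15, and -0.005 in the authors' table). The mean breed difference of *TNNC2* was 0.025 with slide as a block, and that of *TNNT2* at 260 dpc -0.025 over the mean of its probes. Leaving out 1 array, the differences from 180 to 210 dpc ranged from -0.027 to 0.23 (*TNNC1*), -0.016 to 0.23 (*TNNC2*) and -0.14 to 0.18 (*TNNT1*), and the mean breed differences from -0.12 to 0.006 (*TNNC2*) and -0.14 to 0.005 (*TNNT3*). Where a call was lost the cause was not tested, beyond the smaller number of arrays or the larger number of probes. Scan day as a block, chosen after seeing the data, changed no count. Breed differences in the change from 110 to 260 dpc were also simulated, with 2 or 3 foetuses per group. They were recovered for 53 of 100 probes at 1 log2 unit and for 97 of 100 at 2 units. In such data smaller ones are mostly out of reach. All shifted probes had a mean above 2, whereas *TNNI3* (1.21) and the brightest *TNNT2* probe (1.52) lie lower, so these shares do not cover them.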
